A study of Mus musculus with 117 samples.

Results

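Stable state 6 regions are stretches of the mouse autosomes that carried chromatin state 6 in hepatocytes of nearly every strain studied. The authors' deposited segmentations give every 200-bp bin of the genome the number of 1 of 14 states, with 1 segmentation per inbred strain. Members were chosen by state 6 itself: a bin was taken where at least 7 of the 9 strains had it in state 6, and adjacent bins were merged. Their state 6 values in the chosen strains are therefore a description and are given without a test. This rule gave 45100 regions made of 143506 bins. They covered 28.7 Mb, which is 1.17% of the 12313718 autosomal bins and 17.4% of the 825293 bins that were in state 6 in at least 1 strain.

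Laboratory strains were NZO/HlLtJ, NOD/ShiLtJ, DBA/2J, C57BL/6J, A/J and 129S1/SvImJ, and strains derived from wild mice were WSB/EiJ, PWK/PhJ and CAST/EiJ. Per the labels, all mice were females 12 weeks old, and all 117 libraries came from hepatocytes, the parenchymal cells of the liver. Each strain had chromatin immunoprecipitation sequencing of 4 histone marks, H3K4me1, H3K4me3, H3K27ac and H3K27me3, in 3 mice, and 1 input library. No treatment is named. Each segmentation combines the mice of a strain, so a strain is 1 value, the SDs below are between strains, and nothing can be said about mice within a strain. The sequencing depth behind the segmentations is unknown.

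A chromatin state is a recurring combination of histone marks. H3K4me3 typically lies at active gene starts, H3K4me1 at enhancers and on the flanks of starts, H3K27ac at active enhancers and starts, and H3K27me3 over genes held silent by Polycomb proteins. Enhancers often lie inside introns, far from the start of the gene they act on. The mark content of the 14 states is not given in the sources used here, so state 6 serves as a label without a known set of marks.

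The labelled cell type was compared with the states at gene starts. State 3, which covered 0.410% ± 0.0420 of the autosomal bins (SD, n = 9 strains), held the start in at least 7 strains for 38.1% of 16457 protein-coding genes with a listed start. It did so for 12 of 16 hepatocyte-expressed genes, and for 0 of 10 endothelial cell markers, 0 of 10 Kupffer cell and leukocyte markers and 1 of 10 stellate cell and bile duct markers. Other genes active in liver were nearer to all genes, with 7 of 18 for complement, coagulation and acute phase and 9 of 20 for xenobiotic metabolism and transport. State 13 or 14 held the start in at least 7 strains for 32.7% of all 16457 genes. Such starts numbered 0 of 16 for the hepatocyte-expressed genes and 8 of 10 for the Kupffer cell and leukocyte markers. They numbered 5 of 10 for the stellate cell and bile duct markers. The endothelial markers, with 2 of 10, were not above the share of all genes.

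The regions rarely held a gene start. Of 20085 starts of protein-coding genes, 85 lay in a stable state 6 bin, and 27 of these were alternative starts more than 5 kb inside their own gene. Member bins were 1.17% of all autosomal bins. The low count was not particular to state 6: stable state 2, with 141833 bins, held 83 starts, and stable state 4, with 133514 bins, held 144. The 250 bases before those 85 starts held 46.1% ± 9.42 G and C (SD over starts), with a median of 2 CpG dinucleotides. The same stretch before the 7446 starts in stable state 3 held 62.5% ± 9.27 G and C with a median of 19 CpGs, and over all 20085 starts 55.8% ± 12.0 with a median of 10 CpGs. These are descriptions across starts, some of which share bases. The starts in stable state 14, the most widespread state, were close to those in state 6, with 44.7% ± 9.38 G and C and a median of 2 CpGs.

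The 5 protein-coding starts shown lay in the longest regions, among the 13 whose whole 300-base RefSeq window was in state 6 in all 9 strains. They are shown because every strain had these positions in this state. The 250 bases before each start are printed 5′ to 3′ on the gene's strand, with each CpG in capitals. They come from the RefSeq promoter table of GRCm38.p6, the same assembly as mm10, and no strain's own sequence was read.
Pln: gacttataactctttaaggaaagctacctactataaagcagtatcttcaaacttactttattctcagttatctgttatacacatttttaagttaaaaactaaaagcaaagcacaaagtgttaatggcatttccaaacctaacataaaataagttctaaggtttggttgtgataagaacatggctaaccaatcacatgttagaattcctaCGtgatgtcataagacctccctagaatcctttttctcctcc
Smap1: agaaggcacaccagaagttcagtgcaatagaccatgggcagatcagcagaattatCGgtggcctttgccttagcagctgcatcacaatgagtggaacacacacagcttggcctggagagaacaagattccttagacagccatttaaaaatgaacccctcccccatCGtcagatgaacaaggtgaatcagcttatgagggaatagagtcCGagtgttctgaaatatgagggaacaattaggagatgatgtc
Smcp: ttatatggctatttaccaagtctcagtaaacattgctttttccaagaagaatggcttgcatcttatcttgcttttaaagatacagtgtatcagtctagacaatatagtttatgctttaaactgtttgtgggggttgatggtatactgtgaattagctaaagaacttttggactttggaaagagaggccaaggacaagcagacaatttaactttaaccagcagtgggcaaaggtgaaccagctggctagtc
Pnliprp1: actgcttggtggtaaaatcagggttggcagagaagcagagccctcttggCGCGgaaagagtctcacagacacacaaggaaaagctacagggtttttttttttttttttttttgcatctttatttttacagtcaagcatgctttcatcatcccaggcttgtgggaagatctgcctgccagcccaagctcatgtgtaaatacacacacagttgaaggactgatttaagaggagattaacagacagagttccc
Tinag: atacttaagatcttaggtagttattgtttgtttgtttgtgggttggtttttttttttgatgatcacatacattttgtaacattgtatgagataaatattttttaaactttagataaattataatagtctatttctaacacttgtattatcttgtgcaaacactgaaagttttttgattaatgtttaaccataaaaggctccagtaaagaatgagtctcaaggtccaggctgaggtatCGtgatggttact
The Pln stretch, chr10:53337436-53337685 on the plus strand, held 1 CpG in 250 bases. Pln encodes phospholamban, an inhibitor of the calcium pump of heart muscle, and its start lies inside the span of Cep85l. A 10.4-kb region, chr10:53333401-53343800, covered it. The Smap1 stretch, chr1:23909737-23909986 on the minus strand, belongs to an alternative start 12.6 kb inside the gene and held 3 CpGs. The Smcp stretch, chr3:92589074-92589323 on the minus strand, held 0 CpGs. Smcp encodes a protein of the sperm mitochondrial capsule. The Pnliprp1 stretch, chr19:58728637-58728886 on the plus strand, held 2 CpGs, and the gene encodes a pancreatic lipase-related protein. The Tinag stretch, chr9:77045782-77046031 on the minus strand, held 1 CpG, and the gene encodes an antigen of kidney tubule basement membranes. Pln, Smcp, Pnliprp1 and Tinag are known mainly from tissues other than liver.

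MicroRNA hairpins fell in the regions about as often as any bin. Of 919 autosomal hairpins in the RefSeq table, 12 (1.31%) had their centre in a stable bin, and 7 of these bins were in state 6 in all 9 strains. The mature forms below are shown because 3 of them share a seed, the bases 2 to 8 that pair with targets, given in capitals.
let-7d-5p: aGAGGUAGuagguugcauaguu
let-7f-5p: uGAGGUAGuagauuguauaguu
let-7k: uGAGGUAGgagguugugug
miR-30a-5p: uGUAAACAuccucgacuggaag
The first 3 belong to the let-7 family, which represses growth-promoting genes. Mirlet7d and Mirlet7f-1 lay in the same 3-kb region, chr13:48535201-48538200, with state 6 in 9 strains at the first hairpin and in 7 at the second. Mir7k lay in a 1.4-kb region, chr5:147282601-147284000, in state 6 in 9 strains at the hairpin. Mir30a lay in a 1.2-kb region, chr1:23272001-23273200, in state 6 in 7 strains at the hairpin.

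Most regions were short. The median length was 400 bp (quartiles 200 and 800 bp), and 16250 regions (36.0%) were a single bin. At the other end, 2076 regions reached 2 kb, 295 reached 5 kb and 39 reached 10 kb. Regions of at least 2 kb held 25.1% of the member bins. The longest, chr3:118643801-118675200, was 31.4 kb long.

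The rule cuts a distribution with no gap at its threshold. Of the bins ever in state 6, 281271 were in it in 1 strain only, the count fell to 51532 in 6 strains, just outside the rule, and 49177 in 7 strains were just inside it. A further 46867 bins were in state 6 in 8 strains and 47462 in all 9. In regions of 3 or more bins, the inner bins were in state 6 in 8.31 strains on average and the bins at the edges in 7.75. A bin with all 9 strains occurred in 16371 regions (36.3%), and 3925 regions (8.70%) were in state 6 in every strain throughout.

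**Figure D1:**
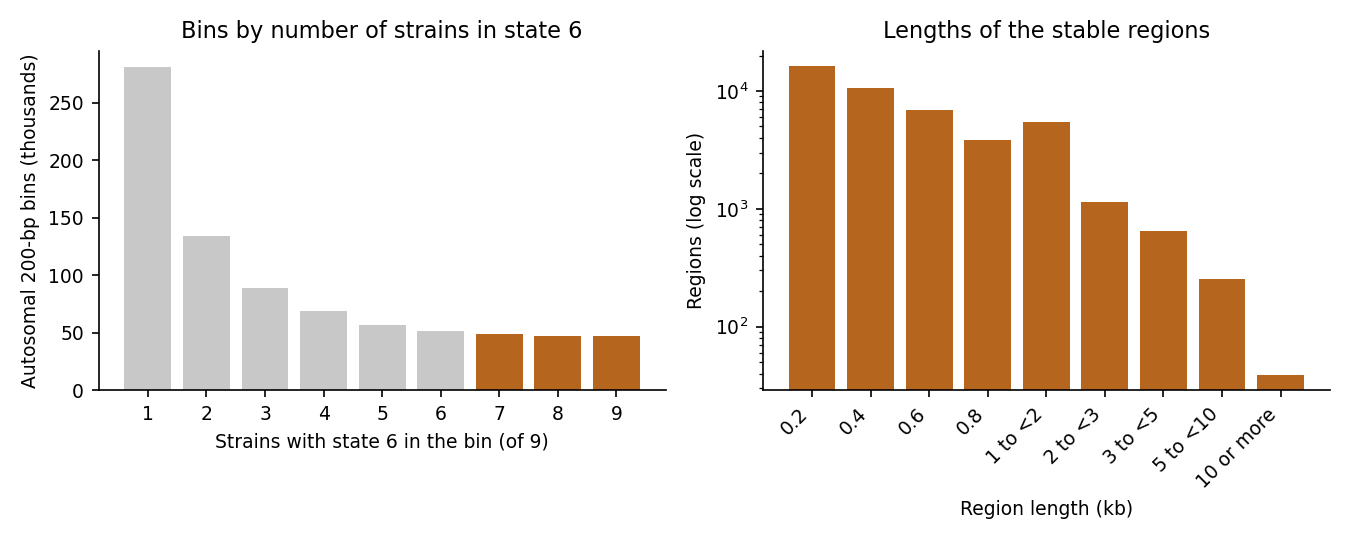
Left, autosomal 200-bp bins (axis in units of 1000 bins) by the number of strains in which they were in state 6, with the 143506 member bins in brown. Right, number of regions (log scale) by length in kb. Counts level off from 6 to 9 strains, and 16250 of the 45100 regions are a single bin.

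Regions lay on every autosome. Their share of the bins ran from 0.918% on chromosome 7 to 1.59% on chromosome 19. A region within 1 kb was the neighbour of 11359 regions (25.2%).

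The first question was how well state 6 in the other strains foretold state 6 in a strain the choice had not used. For each strain, the bins in state 6 in at least 7 of the other 8 strains were taken, and the left-out strain was read there. State 6 held 84.9% ± 6.47 of them (SD, n = 9 strains), against 2.56% ± 0.253 of all autosomal bins, and was higher in 9 of 9 strains (exact sign-flip permutation test, two-sided, p = 0.0039, the smallest that 9 strains allow). The lowest share was 74.2% in PWK/PhJ, the median 87.3% in NZO/HlLtJ and the highest 93.5% in A/J. CAST/EiJ had 75.8% and WSB/EiJ 81.8%, while 129S1/SvImJ, NOD/ShiLtJ, DBA/2J and C57BL/6J had 85.1%, 88.4%, 88.5% and 89.8%.

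The 3 lowest values belonged to the 3 strains derived from wild mice, of which CAST/EiJ and PWK/PhJ descend mainly from other subspecies than the laboratory strains. Their shares averaged 77.3% ± 3.99 (SD, n = 3 strains) and did not overlap the 88.8% ± 2.79 of the laboratory strains (SD, n = 6). The difference of -11.5 percentage points gave p = 0.0119 in an exact two-sided permutation test, the smallest that 3 strains against 6 allow. The choice itself adds to this difference: a bin absent from CAST/EiJ and PWK/PhJ alone counts against each of them but is never chosen when a laboratory strain is left out. It was -8.65 points where all of the other 8 strains had to be in state 6, so that a bin absent from 2 strains is never chosen. In a comparison added after the data were seen, every strain was read in bins that 5 laboratory and 2 wild-derived strains all had in state 6. The wild-derived strains then had 83.6% ± 2.70 (SD, n = 3 strains) and the laboratory strains 92.1% ± 2.32 (SD, n = 6), a difference of -8.55 points with no overlap (exact permutation test, p = 0.0119). A lower share in CAST/EiJ and PWK/PhJ was not particular to state 6. By the same rule, state 1 held 90.5% in CAST/EiJ and 86.7% in PWK/PhJ, its lowest values in the 9 strains. State 2 was also lowest there, with 76.3% and 76.1%, while state 4 was lowest in PWK/PhJ, at 68.1%, and held 83.4% in CAST/EiJ.

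States 1, 2 and 4 covered like shares of the autosomes and served as the nearest comparison. State 6 was less predictable than state 1, whose left-out share was 93.6% ± 3.38. The difference was -8.66 ± 4.84 percentage points and below 0 in 9 of 9 strains (exact sign-flip permutation test, adjusted p = 0.0117 over 3 comparisons). No difference was detected from state 2, at 84.6% ± 6.67, with 0.30 ± 6.09 points (exact sign-flip permutation test, adjusted p = 0.875). Nor was one detected from state 4, at 83.3% ± 8.49, with 1.63 ± 8.58 points (exact sign-flip permutation test, adjusted p = 0.861). State 6 was above state 2 in 3 of 9 strains and above state 4 in 5 of 9.

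**Figure D2:**
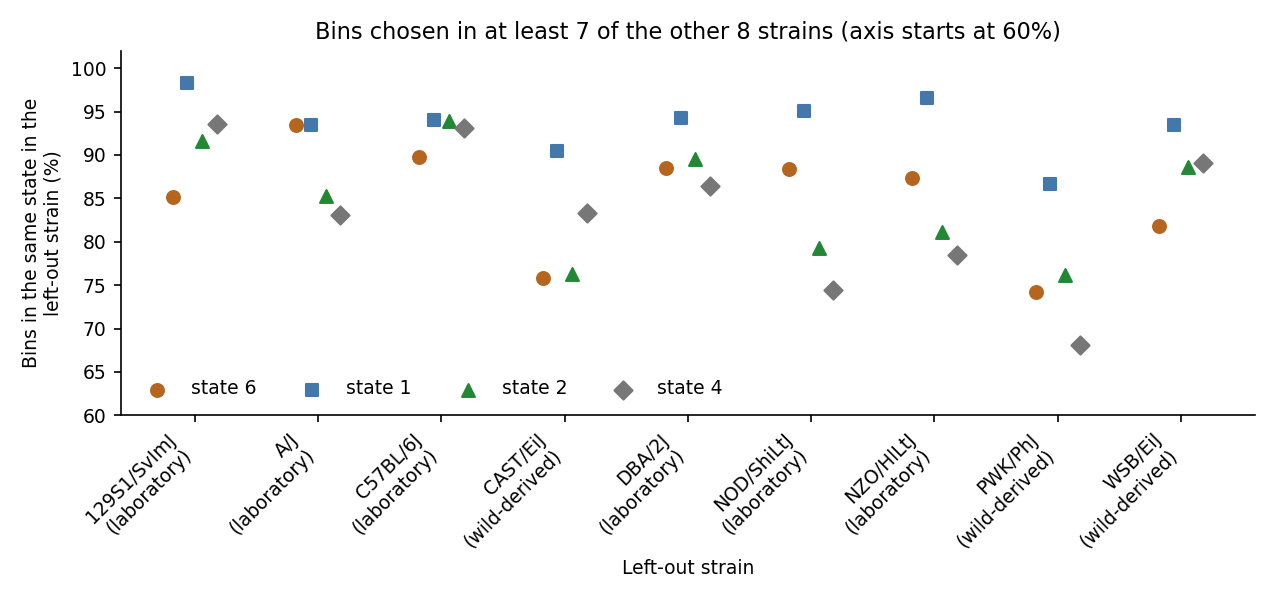
Share of the bins chosen in the other strains that carried the same state in the left-out strain (%, axis from 60), for states 6, 1, 2 and 4, with 1 point per strain and state. State 6 is lowest in PWK/PhJ (74.2%) and highest in A/J (93.5%), and lies below state 1 in every strain.

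Where the left-out strain was not in state 6, it was mostly in state 14 or state 2, and which of these led differed by strain. State 14 made up 48.3% ± 19.5 of these bins, state 2 32.0% ± 17.7 and state 8 12.0% ± 14.7 (SD, n = 9 strains). The difference between states 2 and 14 was -16.3 ± 33.7 points and not past the threshold (exact sign-flip permutation test, p = 0.184), with state 2 ahead in 2 strains, 129S1/SvImJ and NZO/HlLtJ. In 129S1/SvImJ state 2 took 71.4% and state 14 18.8%. In DBA/2J the order was turned, with 77.3% in state 14 and 15.7% in state 2. NOD/ShiLtJ stood apart, with 46.0% of its mismatching bins in state 8, a state that covered 0.686% ± 0.201 of the autosomes.

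**Figure D3:**
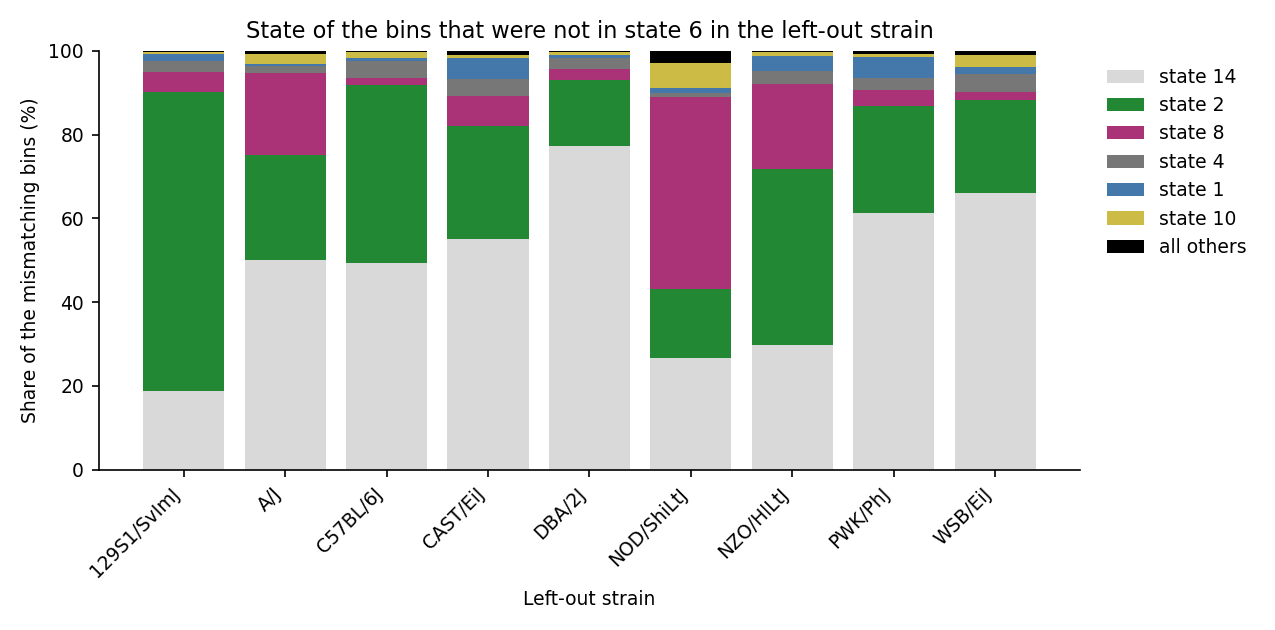
Stacked bars of the state (share in %) of the bins that were in state 6 in at least 7 of the other 8 strains but not in the left-out strain. 129S1/SvImJ is mostly state 2 (71.4%), DBA/2J mostly state 14 (77.3%), and state 8 leads in NOD/ShiLtJ (46.0%).

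Longer regions seldom lacked state 6 in a strain entirely. Of the 7563 regions of at least 1 kb, 6551 (86.6%) had state 6 somewhere in every strain, 900 had none in 1 strain and 112 had none in 2 strains. PWK/PhJ lacked it in 320 of them, CAST/EiJ in 282, NOD/ShiLtJ in 149, 129S1/SvImJ in 136, WSB/EiJ in 101, NZO/HlLtJ in 66, DBA/2J in 30, C57BL/6J in 29 and A/J in 11. CAST/EiJ and PWK/PhJ lacked it together in 49, the highest count of any pair of strains, and PWK/PhJ with 129S1/SvImJ was next with 8.

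The longest region absent from 1 strain lay in Slc22a30, an organic anion transporter gene of the solute carrier family 22. The 4.8 kb at chr19:8374201-8379000 were wholly in state 14 in CAST/EiJ, and between 87.5% and 100% in state 6 in the other 8 strains. The loss ran through the gene, which spans chr19:8335371-8405111. Over its 69.7 kb, state 6 covered 4.29% in CAST/EiJ and state 14 83.4%, while state 6 covered 34.9% to 56.6% in the other strains. The family has near-identical copies on the same chromosome, and how reads were divided among copies was not tested.

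The other strains' longest absences took different states. In NOD/ShiLtJ the 3 kb at chr11:5089801-5092800 in Ewsr1, an RNA-binding protein gene, were wholly in state 8, and 80.0% to 100% in state 6 elsewhere. In 129S1/SvImJ the 2.6 kb at chr12:80809801-80812400 in Susd6 were wholly in state 2, as were its next regions in Plxna2, a semaphorin receptor gene, and Pkp4, a cell junction gene. In WSB/EiJ the 2.8 kb at chr7:136492001-136494800 were wholly in state 10, with the nearest gene, Mgmt, 399.7 kb away. In DBA/2J the longest such region, 2.2 kb at chr8:127166601-127168800, lay in Pard3 and was in state 14.

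**Figure D4:**
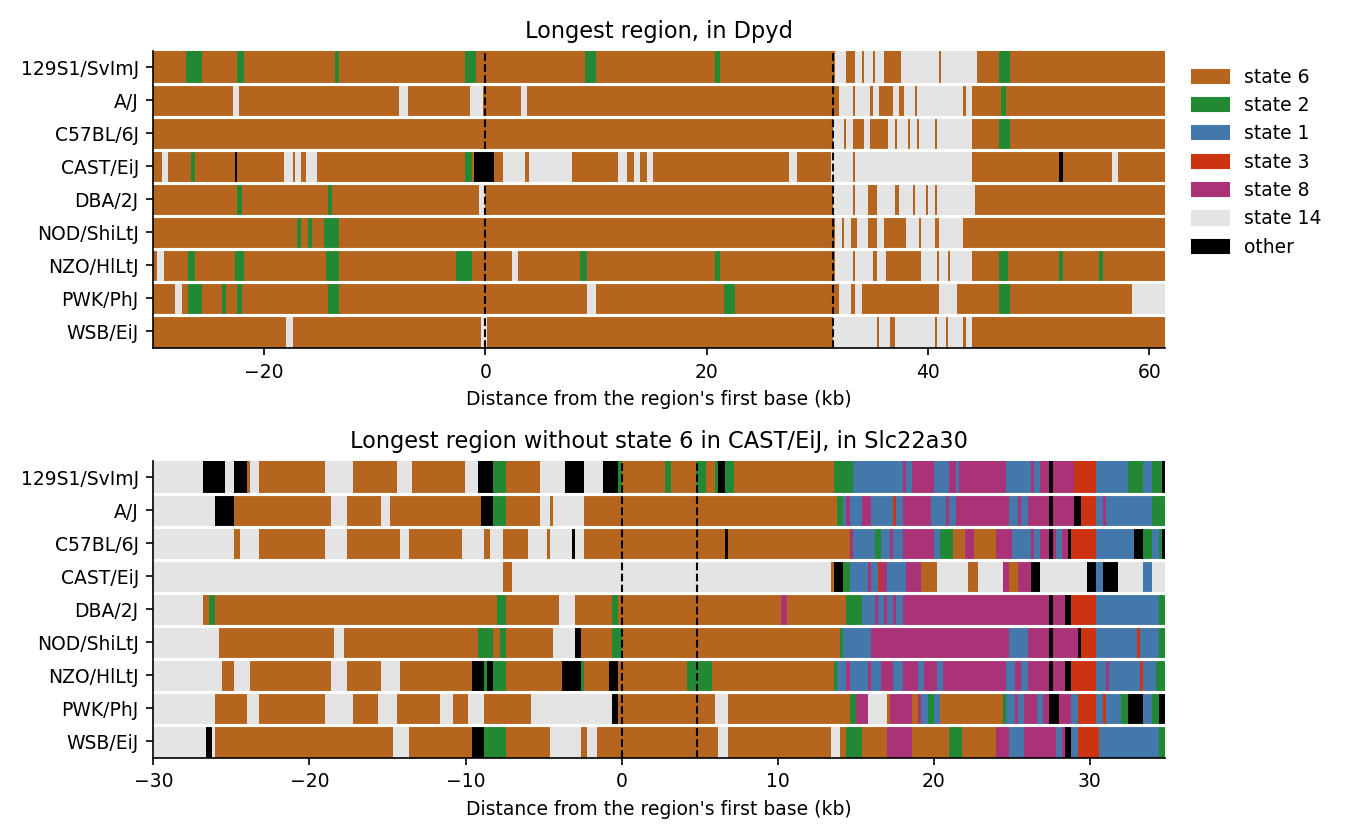
States of the 9 strains (rows) in 200-bp bins, by distance in kb from the first base of the longest region, in Dpyd (top), and of the longest region without state 6 in CAST/EiJ, in Slc22a30 (bottom); dashed lines mark each region. The Dpyd region is nearly filled in 8 strains and 69.4% filled in CAST/EiJ, and the Slc22a30 region is wholly in state 14 in CAST/EiJ.

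The bins just outside the regions were read in the same way, with regions built from 8 strains and the left-out strain measured. State 6 itself held 49.9% ± 6.42 of these flanking bins and state 14 36.7%, so the edges of a region were not sharp between strains. State 2 held 7.26% ± 3.27, against 2.30% ± 0.281 of the autosomes. The difference of 4.96 ± 3.10 points was above 0 in 9 of 9 strains (exact sign-flip permutation test, adjusted p = 0.0039 over 13 states). It was 2.97 points where all of the other 8 strains had to be in state 6. States 8 and 10 were also above their autosomal share in 9 of 9 strains, with 2.40% against 0.686% for state 8 and 0.280% against 0.155% for state 10 (exact sign-flip permutation test, adjusted p = 0.0039 for each). The other 10 states, state 1 among them with 1.03% against 2.51%, were below it in 9 of 9 strains. These lower shares are partly set by state 6 itself. State 6 took 49.9% of the flanking bins against 2.56% of the autosomes, which leaves less room for every other state. Whether these 10 states were scarcer among the flanking bins outside state 6 was not tested. State 13 was nearly absent, with 0.340% against 11.1%.

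State 6 thinned out with distance. It held 13.5% ± 2.46 of the bins 1 kb outside a region, 7.70% ± 1.31 at 5 kb and 6.56% ± 1.10 at 10 kb (SD, n = 9 strains), still above its autosomal mean of 2.56%.

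The regions lay mainly inside genes and away from starts. Of the member bins, 74.7% were in the span of a protein-coding gene, from its first to its last annotated base, against 40.1% of all autosomal bins. Bins stable by the same rule in states 1, 2, 4 and 3 had 68.4%, 69.3%, 54.5% and 86.5%. Only 1.02% of the member bins were within 2 kb of a protein-coding start, against 2.92% of all bins. Stable states 1 and 3 had 26.3% and 74.2%, while stable states 2 and 4 had 1.51% and 2.25%. A share below that of all bins was therefore not particular to the regions.

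Gene position was not part of the rule, so recurrent state 6 could be tested against sporadic state 6 in the same strain. Recurrent bins were in state 6 in at least 7 of the other 8 strains, and sporadic bins in at most 1. Of the recurrent bins 76.7% ± 0.365 were in a gene span, and of the sporadic bins 62.8% ± 4.65 (SD, n = 9 strains). The difference of 13.8 ± 4.73 points was above 0 in 9 of 9 strains (exact sign-flip permutation test, p = 0.0039). It was lowest in C57BL/6J, at 8.45 points, and highest in CAST/EiJ, at 22.4 points. Within 2 kb of a start lay 0.909% ± 0.0122 of the recurrent and 2.62% ± 0.638 of the sporadic bins, a difference of -1.71 ± 0.632 points, below 0 in 9 of 9 strains (exact sign-flip permutation test, p = 0.0039). The size of this difference follows the window, with -0.86 points within 1 kb, -6.87 points within 5 kb and -2.65 points within 2 kb of any annotated gene's start. The recurrent bins are largely the same bins in each strain, so their small SD is not an independent error.

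A comparison added after the data were seen took every state 6 bin of a strain, stable or not. It placed 69.7% ± 1.80 of them in gene spans (SD, n = 9 strains). State 6 was 1.93 ± 1.89 points above state 1, in 7 of 9 strains (exact sign-flip permutation test, adjusted p = 0.0410), and 12.8 ± 5.59 points above state 4, in 9 of 9 (exact, adjusted p = 0.0117). The difference of 2.13 ± 3.64 points from state 2 was not past the threshold (6 of 9 strains, exact, adjusted p = 0.113).

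Within genes the regions kept a distance from the start. Measured from the gene's first listed start, the member bins lay at a median of 31.6 kb, and all bins of the same spans at 50.8 kb. Stable state 6 took 0.231% of the bins 0 to 2 kb into a gene, 0.657% at 2 to 5 kb, 3.86% at 5 to 10 kb and 3.89% at 10 to 20 kb, and fell to 1.38% beyond 100 kb. The 4494 genes of 40 kb or more showed the order of states along a gene. Stable state 3 took 16.7% of the bins 0 to 2 kb from the start, stable state 1 took 19.6% there and 11.7% at 2 to 5 kb, and stable state 6 was highest at 5 to 10 kb, with 6.25%. Ahead of the start, 2 to 10 kb upstream, stable state 6 took 1.15%. At 0 to 2 kb into these genes stable state 6 took 0.249%, and stable states 2 and 4 were about as scarce, with 0.182% and 0.247%.

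**Figure D5:**
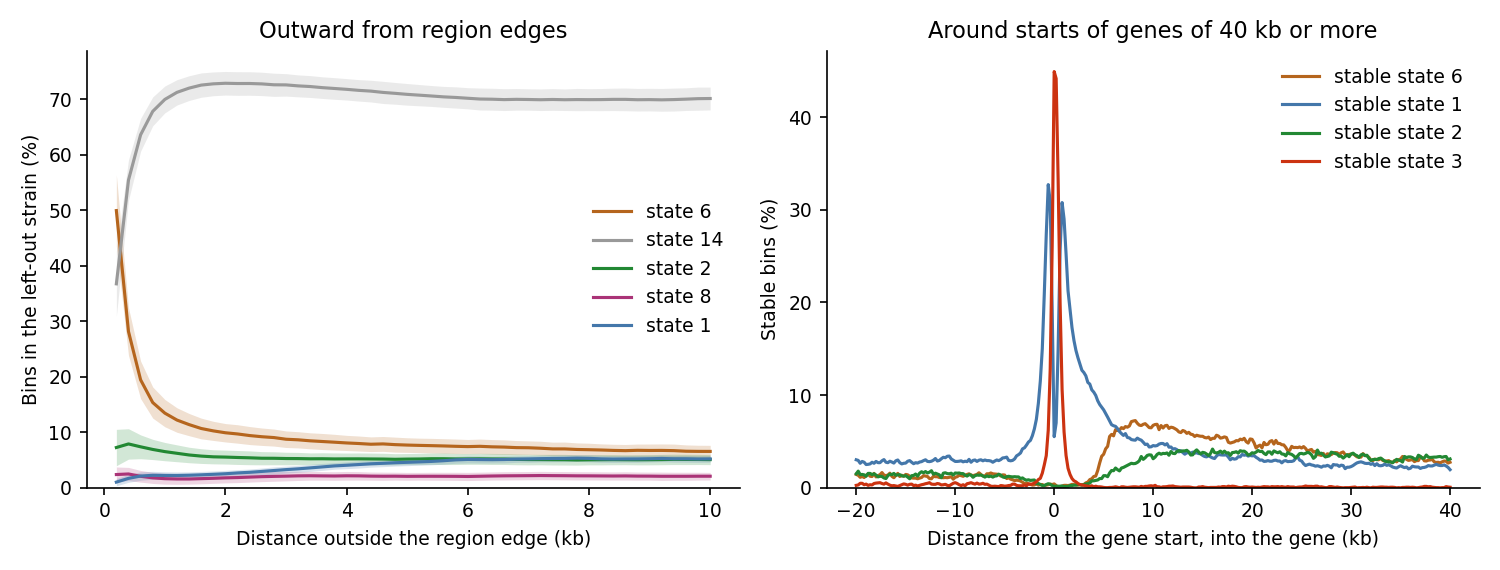
Left, share of bins (%) in 5 states by distance in kb outside the regions, read in the left-out strain (line, mean of 9 strains; band, SD). Right, share of bins (%) in stable states 6, 1, 2 and 3 by distance in kb from the first start of the 4494 genes of 40 kb or more. State 6 falls from 49.9% in the first bin to 13.5% at 1 kb, and stable state 6 is scarce at starts and highest at 5 to 10 kb.

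Of the 20665 protein-coding genes on the autosomes, 6830 (33.1%) held at least 1 member bin in their span. This share follows gene length. It was 1.16% for spans under 5 kb, 15.5% at 5 to 20 kb, 42.8% at 20 to 50 kb, 83.2% at 100 to 200 kb and 91.5% at 200 kb or more. The median span was 56.4 kb for genes with a member bin and 9.66 kb for those without. The share of the summed span, which allows for length, was 2.15% over all genes and highest, at 3.43%, in genes of 50 to 100 kb. The regions were concentrated: 167 genes held 100 or more member bins, and the 500 genes with the most held 49.1% of all member bins in genes.

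Genes with a member bin differed from other genes at their starts. This comparison was added after the data were seen, and took the 7569 genes of 20 kb or more with regions chosen in the other 8 strains. The left-out strain had state 3 at 56.4% ± 1.34 of the starts of genes with a region and 39.4% ± 1.44 of those without, a difference of 17.0 ± 0.769 points in 9 of 9 strains (exact sign-flip permutation test, adjusted p = 0.0039 over 4 states). State 13 held 7.23% against 13.1% of these starts, and state 14 10.8% against 18.5%, both lower in 9 of 9 strains (exact sign-flip permutation test, adjusted p = 0.0039). The same 7569 genes were read in each strain, and 3975 to 4204 of them counted as having a region. The p-values therefore measure repeatability between strains and not the spread between genes. The gap in state 3 was 19.1 points for spans of 20 to 50 kb, 28.3 points at 50 to 100 kb, 35.6 points at 100 to 200 kb and 24.3 points from 200 kb, so it was present in each length class. For state 1 the direction changed with length, from -2.35 points at 20 to 50 kb to 5.39 points at 100 to 200 kb.

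By number of bins, Dpyd led with 995 member bins (22.8% of its 870.8-kb span, chr3:118562109-119432924). Dpyd encodes dihydropyrimidine dehydrogenase, which starts the breakdown of uracil and thymine. Its 81 regions included the longest of all, at chr3:118643801-118675200, which CAST/EiJ had 69.4% in state 6 and the other 8 strains 94.3% to 100%. Over the whole gene, state 6 was lowest in CAST/EiJ (20.3%), with a median of 29.3% and a highest value of 35.0% in NOD/ShiLtJ.

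Adk, which encodes adenosine kinase, followed with 831 member bins in 53 regions (41.9% of its span). State 6 covered 43.0% of the gene in CAST/EiJ, a median of 50.3% and at most 55.7%, in NOD/ShiLtJ. Its longest region, chr14:21154001-21176600, was 22.6 kb long and between 95.6% and 100% in state 6 in every strain. Next came Pard3, a cell polarity gene, with 542 bins, Zbtb20, a transcriptional repressor gene, with 533, and Magi1, a cell junction scaffold gene, with 514. Pid1 (472 bins), Ptprk (425), Zfand3 (368), Immp2l (341) and Kmt2c (315) completed the first 10. Kmt2c encodes a methyltransferase of H3K4, the residue that 2 of the assayed marks modify. It varied least of the 10, from 28.9% to 32.8% over the strains.

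By share of span, Peli1 led with 56.1% of 59.0 kb, ahead of Rybp with 55.9% and Gatad2b with 55.2%. Peli1 encodes a ubiquitin ligase of innate immune signalling, Rybp a Polycomb subunit and Gatad2b a subunit of the NuRD remodelling complex. An 18-kb region at chr11:21107201-21125200 was the longest in Peli1, where CAST/EiJ was lowest with 73.3% in state 6 and the other strains had 94.4% to 100%. A 17.8-kb region at chr3:90309801-90327600 lay in Gatad2b. Ube2e3, a ubiquitin-conjugating enzyme gene, followed with 51.2%, ahead of Rbm15 and Qk, which encode RNA-binding proteins. Sem1, a proteasome subunit gene, Arhgap5, Hnrnpc, an RNA-binding protein gene, and Siah1a, a ubiquitin ligase gene with 46.5%, completed the first 10.

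Of these 20 genes, 18 had a listed start, and 12 of the 18 had state 3 there in all 9 strains. The share of all genes at that threshold was not taken. In at least 7 strains it was 38.1% of all genes, and genes of 20 kb or more with a region had state 3 at 56.4% of starts. The count is therefore not read as particular to the leading genes. The first member bin of the 18 genes lay 2.2 to 39.4 kb downstream of the listed start, with a median of 6.50 kb. Zbtb20 had state 1 at its first start in 9 strains, and Magi1 and Arhgap5 had state 14 there in 9 strains.

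The 13 gene lists were read against the 33.1% of all genes and the 2.15% of all spans. Growth factor, hormone and insulin signalling had the highest share of its span, 8.44%, with 20 of 26 genes. The median share over its genes was 1.88%, so the summed share rests mainly on a few members with many bins. The list's median span was 64.9 kb, and 69.98% of all genes of 50 to 100 kb held a member bin. The count of genes is therefore not read as particular to the list. Among its members, Ghr, the growth hormone receptor, held 277 of the list's 845 member bins, Foxo1, a transcription factor restrained by insulin, 159 and Prlr, the prolactin receptor, 66. Insr, the insulin receptor, held 2, and Igfbp1, Erbb3, Lepr, Gcgr, Il6ra and Stat5b held 0.

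The strains varied at these genes. Ghr was in state 6 over 24.5% of its span in 129S1/SvImJ, a median of 31.8% and 40.9% in A/J. Foxo1 ranged from 36.1% in 129S1/SvImJ to 59.0% in NOD/ShiLtJ with a median of 51.7%. The lowest strain was 129S1/SvImJ at both genes, and it also had the lowest share of state 6 over the autosomes, 2.24%. The highest strains, A/J and NOD/ShiLtJ, also had the highest autosomal shares, 3.04% and 2.86%. The part of a strain's overall amount of state 6 in the values at single genes was not tested. Prlr ran from 8.02% to 26.3%, with a median of 12.6%.

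Of 23 matched hepatocyte-expressed genes, 3 held a member bin, and these gave the list 5.55% of its summed span. Cps1, the first enzyme of the urea cycle, held 109 bins, Apob, the main protein of very low density lipoprotein, held 21, and Tdo2, a tryptophan-degrading enzyme, held 1. State 6 over Cps1 was lowest in NZO/HlLtJ (21.5%), with a median of 27.0%, and highest in A/J (52.8%). The other 20, which include Alb (15.7 kb) and Apoa1 (1.84 kb), held 0, and the list's median span was 10.9 kb. A member bin was held by 15.5% of all genes of 5 to 20 kb. The low count is therefore not read as particular to hepatocyte-expressed genes.

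Complement, coagulation and acute phase genes had 8 of 26 with a member bin and 5.55% of the summed span. The list held 168 member bins, and its median share of span was 0%. Most of these bins lay in a listed gene that is not reported here, so the list's share rests mainly on that gene. Among the other members, Kng1, a kininogen gene, held 19, Plg held 4 and F5 held 3. Kng1 has a near-identical neighbour, so its value depends on how such reads were placed.

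Hepatocyte transcription factors and nuclear receptors had 11 of 28 and 4.21% of the span. Thrb, a thyroid hormone receptor, held 247 of the 688 bins, ahead of Rora with 98, Tcf7l2 with 81 and Nfia with 72. Thrb ranged from 16.1% in WSB/EiJ to 31.1% in A/J, with a median of 19.0%. Hnf4a, a central hepatocyte regulator, held 9, and Ppara, the fatty acid sensor, held 0.

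The circadian clock list had 8 of 20 and 4.03% of the span. Arntl and Clock, which together form the activating pair of the clock, held 79 and 73 bins, and Rora, which activates Arntl and is also in the preceding list, 98. Clock stayed between 17.3% and 21.2% over the 9 strains.

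Xenobiotic metabolism and transport had 10 of 24 and 3.01% of the span. Cyp2c29, a cytochrome P450 with close paralogs beside it, held 43 bins, and Abcb11, the bile salt export pump, held 36. Cyp2c29 was in state 6 over 9.13% of its span in NOD/ShiLtJ, against a median of 34.2% and a highest value of 50.2% in A/J. Lipid and lipoprotein metabolism stood below all genes per span, with 9 of 26 and 0.971%. Ppargc1a held 41 bins, Lipc, hepatic lipase, 28 and Acaca, which starts fatty acid synthesis, 15.

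Ubiquitously expressed genes, at 6 of 20 and 2.25%, were near the values for all genes, but their median span was only 5.68 kb. Of all genes of 5 to 20 kb, 15.5% held a member bin, and member bins took 0.869% of their summed span. The 5 lists that follow were below all genes by share of the summed span. By share of genes with a member bin, the endothelial and the long neuronal lists were above all genes. The endothelial list had a median span of 44.6 kb, and 42.8% of all genes of 20 to 50 kb held a member bin. Developmental regulators had 3 of 24 and 0.666%, with 16 of their 18 bins in Gata4, which is also expressed in liver cells. Endothelial cell markers had 7 of 14 and 0.494%, stellate cell and bile duct markers 3 of 15 and 0.300%, and Kupffer cell and leukocyte markers 1 of 13 and 0.0472%, a single bin in Cd3e. Long neuronal adhesion and synapse genes had a bin in 19 of 20, the exception being Kcnd2, but over a median span of 1228 kb and only 0.455% of the summed span. Ptprd held 308 of their 636 bins.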

How the data were processed

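The authors deposited 1 chromatin state segmentation per strain, and the values used are a category, the state number of each interval, not a count, signal or score. Every file header names 1 strain, and per the labels the file stands for all 13 libraries of that strain. The submitters' processing notes name FastQC 0.11.5, MACS 1.4.2 and build mm10. The aligner and the segmentation tool are not given in the sources used here.

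Intervals were written as 200-bp bins of the 19 autosomes and grouped by strain as the labels name it. Genes came from RefSeq tables of GRCm38.p6, which list a start for 16457 of 20665 protein-coding genes. For tests, bins were chosen in at least 7 of 8 strains and the left-out strain was measured. Exact two-sided sign-flip permutation tests used 512 sign patterns over 9 strains, the contrast of strain origins used the 84 ways to choose 3 of 9 strains, and families were adjusted by the Benjamini-Hochberg method at 0.05. Strains have common ancestors and are not wholly independent, and whether the states were learned on all strains together is not stated.

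The members and gene lists were chosen with earlier results of these data known. Genes named were the 10 with the most member bins, the 10 with the highest share of a span of at least 10 kb, up to 4 per list by member bins, and those of the 5 longest regions. Other genes named, the promoter and microRNA sequences, and the tests of all state 6 bins, of starts and of a balanced choice of strains were chosen after the data were seen. Some listed genes are not reported here. Tf, F9 and Vsig4 of the lists matched no autosomal gene symbol. Planned sequences of region centres and GC content were not analysed here, since no genome was used. Alternatives varied the number of strains, single-bin segments, merging, gene sets, windows and each strain in turn. The code, in Python 3.11.15 with numpy 2.4.6, pandas 2.3.3 and matplotlib 3.10.9, was tested on simulated data.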

Additional observations from a re-analysis of the deposited data

Results flagged for a closer look

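Sets of 9 strain values were screened for a strain whose gap to its nearest neighbour was, relative to the whole range, above Dixon's critical value for 9 values. Of 16 sets, 3 had such a strain, and chance gives about 0.8. In 129S1/SvImJ, 71.4% of the bins that departed from state 6 were in state 2, with the next strain at 42.6% (C57BL/6J). In NOD/ShiLtJ, 46.0% of such bins were in state 8, with the next strain at 20.3% (NZO/HlLtJ). NOD/ShiLtJ also had 6.02% of them in state 10, with the next strain at 2.85% (WSB/EiJ). Shares of 1 strain sum to 100%, so these are not independent.

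Chromosome X lies outside the autosomal rule. There, 244 bins were in state 6 in at least 7 strains and formed 38 regions. They were 0.0285% of the 855156 bins of the chromosome, against 1.17% of the autosomal bins.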

How the results depend on the processing

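Of 120 values under an alternative, 116 kept their direction and their side of the threshold, or a count within 1.5 times the reported one. The difference between states 6 and 2, not past the threshold in any setting, turned from 0.30 to -0.045 points without NOD/ShiLtJ (exact sign-flip permutation test, adjusted p = 0.969). Leaving out each strain gave -0.045 to 0.58 points. Regions numbered 18209 where all 9 strains were required and 28850 without single-bin regions, against 45100, and genes with a member bin numbered 3918 where all 9 strains were required, against 6830. At least 6 or at least 8 strains gave 57014 and 32234 regions. In every run without 1 strain, bins were chosen in at least 6 of the other strains instead of at least 7, so both changes enter the values. The left-out share of state 6 then ran from 82.6% to 83.9%, against 84.9% with all strains. The contrast of wild-derived and laboratory strains ran from -14.5 to -10.1 points (exact permutation p at most 0.0357). The planned test of GC content was not run because no genome was used. The depth behind the segmentations is unknown, so no counting error can be set. No paired analysis was possible because each segmentation pools the replicate mice of a strain and carries no replicate number.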
